A study of Mus musculus with 6 samples.

Results

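The genes described here are 10 enzymes and cofactors that write, maintain or remove DNA methylation or form Polycomb repressive complex 2 (PRC2): Dnmt1, Uhrf1, Dnmt3a, Dnmt3b, Tet1, Tet2, Tet3, Ezh1, Ezh2 and Eed. They were taken as every non-control probe whose transcript accession in the scanner files belongs to one of these genes. That rule gave 21 of 56605 probes, for 10 of the 23458 genes that could be named. It used no measured value. All 10 genes had a probe well above background on all 6 arrays, and 19 of the 21 probes were tested.

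The series profiled isolated acinar cells, the enzyme-secreting cells of the pancreas, from C57BL/6 mice. The KC samples (n = 3) carried Ptf1aCre and an oncogenic allele that Cre switches on. The KCS samples (n = 3) carried the same alleles and Setdb1flox/flox, so that Cre can also delete Setdb1, which encodes a histone H3 methyltransferase. Cre follows Ptf1a, a gene of the pancreatic lineage, and the Cre and the oncogenic allele are shared by both groups. The series title links Setdb1 to pancreatic ductal adenocarcinoma and to apoptosis that runs through p53. The labels used here give no age and do not say whether the samples of a group came from separate animals, so p-values measure only the spread between these samples, which may be technical.

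DNA methylation at CG sites is copied after replication by Dnmt1, which Uhrf1 brings to newly made DNA. Dnmt3a and Dnmt3b set new methylation, and the Tet enzymes oxidise it as a first step towards removal. In PRC2, Ezh1 or Ezh2 is the catalytic subunit that methylates histone H3 at lysine 27, and Eed and Suz12 hold the complex together. Both systems keep genes silent, as does the histone mark set by Setdb1.

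The groups differed in more than these genes. A KC array had 26550 to 27237 probes with signal well above background and a KCS array 35366 to 35920. The 75th percentile of the signal lay between 61.2 and 68.6 scanner units in KC and between 347 and 423 in KCS. Values below are log2 signals relative to that percentile of the same array. The median change over all 27102 rows tested (1 per named gene or unnamed probe) was -0.19 on this scale, 0.16 with arrays centred on their medians and 2.69 with arrays scaled to their spike-in controls, so each scaling moves every change by the same amount. Whether equal amounts of RNA and of spike-in went into each reaction was not tested. All 15 acinar markers were lower in KCS, and their summed log2 level was 15.02 to 15.27 in KC but 2.27, 4.27 and 11.09 on KCS arrays 1, 2 and 3, so KCS array 3 stands apart. Of 11 macrophage markers 10 were higher (summed level 6.02 to 6.47 in KC, 8.77 to 9.11 in KCS), as were all 9 fibroblast markers (7.65 to 8.07 against 10.09 to 10.39) and 6 of 7 endothelial markers. Of 7 ductal markers 3 were higher and 1 lower, and of 8 T and B cell markers 2 were higher and 3 lower. In such bulk samples fewer cells of a type and less RNA per cell cannot be told apart, and the part of this cell mixture in the results below was not tested. The Setdb1 probe read -0.91, -1.05 and -0.32 in KC and -0.28, -0.44 and -0.55 in KCS, a change of 0.33 ± 0.24 (SE, limma adjusted p = 0.270). Its place relative to the floxed part of the gene is not known here, so it does not check the genotype.

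Of the 10 genes, 6 passed the test (limma adjusted p below 0.05): Dnmt1, Uhrf1 and Tet2 were higher in KCS, and Tet1, Tet3 and Eed were lower. Dnmt3a, Dnmt3b, Ezh1 and Ezh2 did not pass. Over all rows tested, 60.3% were called, 25.9% higher and 34.4% lower, so that 6 of 10 is a share near the background. The arrays of the groups did not overlap for the same 6 genes, where 68.2% of all rows did not overlap. The median change of the 10 genes was -0.02, beside -0.19 for all rows. The directions were 4 higher and 2 lower with median centring (of all rows 59.7% were called, 33.8% higher and 26.0% lower), and 10 higher and 0 lower with spike-in scaling (of all rows 90.1%, with 87.2% higher and 2.91% lower). Without KCS array 3, 5 of the 10 were called (beside 55.8% of all rows), and 4 to 7 with any single array left out (beside 49.4% to 56.4%).

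**Figure D1:**
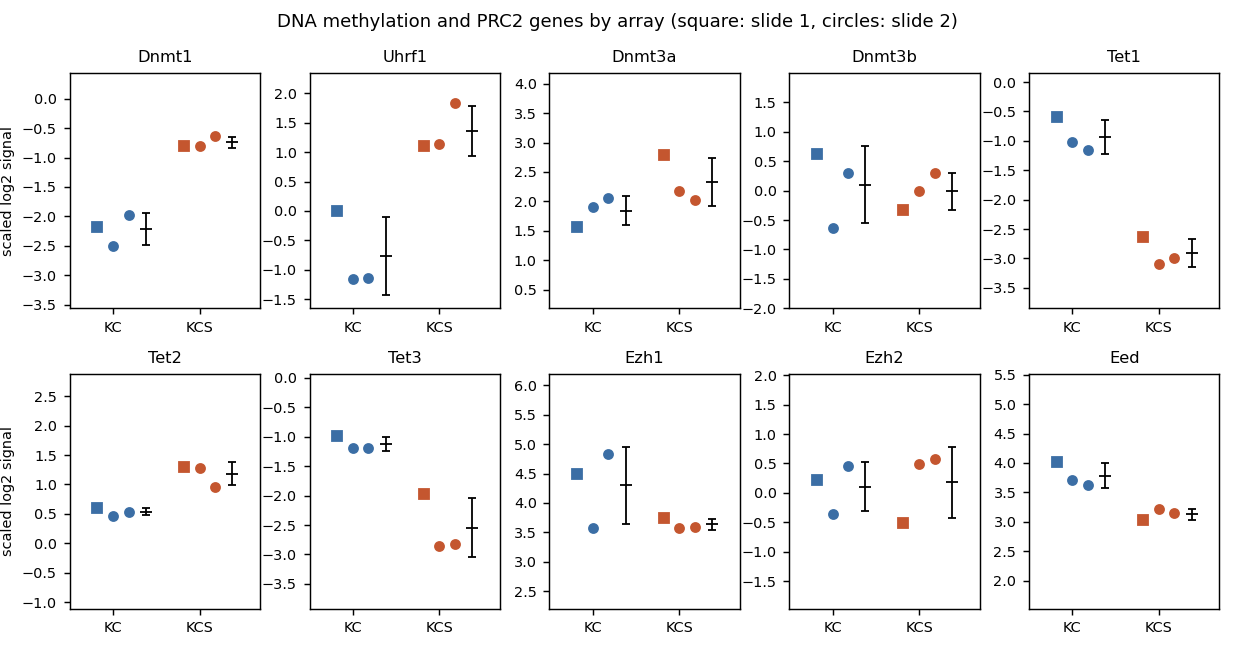
Scaled log2 signal (y axis, log2 relative to the array's 75th percentile, each panel spanning the same range) of the 10 genes in KC (blue) and KCS (orange), with 1 point per array. Squares are slide 1, circles slide 2, and the bar to the right is the mean ± SD of 3 arrays. Dnmt1, Uhrf1 and Tet2 lie higher in all KCS arrays and Tet1, Tet3 and Eed lower, on this scale; with spike-in scaling the last 3 are higher.

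The maintenance pair rose in KCS. Dnmt1, the methyltransferase that copies methylation onto the new strand, read -2.18, -2.50 and -1.97 in KC and -0.80, -0.80 and -0.63 in KCS. All 3 KCS arrays lay above all 3 KC arrays, and the KCS arrays spread less (SD 0.10 against 0.27). The change was 1.47 ± 0.20 (SE, limma adjusted p = 0.00113), which is 2.78-fold. It was 1.38 on slide 1 and 1.52 on slide 2, and 1.67 above the median of all rows. It stayed between 1.33 and 1.60 with any single array left out, and it was smaller, 0.85 (adjusted p = 0.000797), with normexp on median signals followed by quantile normalization.

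Uhrf1 encodes the protein that recognises DNA methylated on 1 strand only and recruits Dnmt1. Its signal was -0.01, -1.16 and -1.14 in KC and 1.10, 1.14 and 1.84 in KCS. The first KC array was the highest of its group by over 1 log2 unit, and the groups still did not overlap. The change was 2.13 ± 0.39 (SE, adjusted p = 0.00363), 4.37-fold, and it was 1.11 on slide 1 and 2.64 on slide 2. A second Uhrf1 probe was well above background on no KC array and on 1 KCS array and was not tested.

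In the ratio of Uhrf1 to Dnmt1 within each array a scaling factor per array cancels. It was 2.17, 1.35 and 0.83 (log2) in KC and 1.90, 1.94 and 2.47 in KCS, and the groups overlapped. The change of the ratio, 0.65 ± 0.38 (SE), had a 95% interval from -0.23 to 1.53 (adjusted p = 0.148). Among all rows set against Dnmt1 in this way, 78.4% were called. All rows of such a fit share the spread of the gene they are set against. The intervals, adjusted p-values and shares called of this and the other ratios below can therefore be too confident. The ratio passed the test without KC array 1 (1.01, adjusted p = 0.0305) and with normexp on median signals followed by quantile normalization (0.59, adjusted p = 0.0370); with quantile normalization of the processed signals it did not (0.51, adjusted p = 0.265).

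Promoter windows of all 10 genes were found in RefSeq (GRCm38.p6, 250 bases before to 50 after each annotated start). E2F factors, which drive genes of DNA replication, bind letters of the kind TTTCCCGC, TTTCGCGC, TTTGCCGC or TTTGGCGC. These letters, on either strand, occur in 2.26% of 32851 such windows and in some window of 2.60% of 27025 genes. Among the 10 genes they occur in Dnmt1, Uhrf1 and Ezh2. The stretches around them are shown because the first 2 genes rose together and Ezh2 behaved differently from probe to probe. Dnmt1 and Uhrf1 have several windows each, and the letters occur in only 1 window of each gene. A gene with several windows has more chances of a match. Positions below count from the annotated start of the window that holds the letters. The capitals mark the letters, and a match describes the sequence, not a bound site.
Dnmt1 (chr9:20952803-20952862, minus strand, -239 to -180 from the start, letters on the opposite strand): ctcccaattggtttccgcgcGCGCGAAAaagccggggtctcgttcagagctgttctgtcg
Uhrf1 (chr17:56304108-56304167, plus strand, -205 to -146): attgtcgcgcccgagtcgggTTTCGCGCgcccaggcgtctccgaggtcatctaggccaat
Ezh2 (chr6:47595020-47595079, minus strand, -49 to 11): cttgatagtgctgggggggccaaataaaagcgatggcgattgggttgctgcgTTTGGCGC
Dnmt1 and Uhrf1 hold the same 8 letters, TTTCGCGC, which read GCGCGAAA on the strand printed for Dnmt1, and the Dnmt1 window holds another match downstream of its start. Such letters also occur in 5 of 16 proliferation markers with a window (Mcm3, Mcm5, Mcm6, Mcm7 and Cdk1), in 2 of 11 partners and readers of DNA methylation (Hells and Cdca7), in 2 of 8 PRC2 partners (Suz12 and Phf19) and in 0 of 14 PRC1 subunits. These genes did not all move one way: Phf19 was lower in KCS (-2.31), and Suz12 was not called (-0.39). The windows of the 10 genes were rich in CG pairs: the richest window of each gene held 17 (Tet1 and Eed) to 57 (Tet2), with a median of 30.5. By the same measure the median was 8 over all genes, and 25, 26, 34 and 27 for the proliferation markers, the DNA methylation partners, the PRC2 partners and the PRC1 subunits, so this richness is shared with those lists. All the E2F-type letter strings hold a CG pair, so CG-rich windows can match them more often. The 2.60% of all genes is therefore not a like background for these 10. The share among equally CG-rich windows was not tested.

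Markers of proliferating cells moved with this pair. Of 20 markers, 13 were higher in KCS and 0 lower, with a median change of 1.17 (beside 25.9% of all rows higher and a median of -0.19), and 11 to 15 were higher with any single array left out. The replication helicase genes Mcm3 and Mcm4 rose by 3.66 ± 0.20 and 2.91 ± 0.21 (SE), Mcm6 by 2.34 ± 0.22 and Mcm2 by 1.45 ± 0.18. The call for Mki67, a marker of cycling cells, was not reached (change 0.32 ± 0.28, adjusted p = 0.366). The summed log2 level of the list was 5.11 to 5.70 in KC and 6.39 to 6.85 in KCS. Its median was 0.65 on slide 1 and 1.39 on slide 2, the slide in which Uhrf1 also differed more. The part of proliferation in the rise of Dnmt1 and Uhrf1 was not tested.

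The de novo methyltransferases did not pass the test through the probes that stand for them. Dnmt3a read 1.57, 1.91 and 2.05 in KC and 2.79, 2.18 and 2.03 in KCS. The first KCS array was the highest and the third lay within the KC range. The change was 0.49 ± 0.26 (SE, 95% interval -0.15 to 1.13, adjusted p = 0.151), and it was 1.22 on slide 1 and 0.12 on slide 2. With median centring it was 0.84 (adjusted p = 0.0310).

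A second Dnmt3a probe read -4.26, -4.71 and -2.67 in KC and -1.81, -1.98 and -1.93 in KCS. The fit gave a change of 1.97 (adjusted p = 0.0151 over all probes). On KC arrays 1 and 2, however, the probe lay under -3.09, the dimmest signal called well above background there, so the size of this change is not known. The averaged probes (1.23, adjusted p = 0.0190) rest on the same dim values.

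Dnmt3b, the second enzyme that sets new methylation, read 0.63, -0.64 and 0.30 in KC and -0.32, -0.01 and 0.30 in KCS. The groups overlapped throughout. The change was -0.11 ± 0.36 (SE, 95% interval -0.98 to 0.77, adjusted p = 0.812), -0.95 on slide 1 and 0.31 on slide 2, and it was above 0 with median centring (0.25) and spike-in scaling (2.77). Another Dnmt3b probe read -0.44, -1.27 and -1.03 in KC and -1.89, -2.01 and -1.43 in KCS, a change of -0.86 (adjusted p = 0.0363). The remaining Dnmt3b probe was below that level on all arrays.

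Within arrays, the log2 ratio of Dnmt3b to Dnmt3a was -0.94, -2.54 and -1.75 in KC and -3.11, -2.19 and -1.73 in KCS, with overlap. Its change was -0.60 ± 0.49 (SE, 95% interval -1.64 to 0.45, adjusted p = 0.316), where 54.5% of all rows set against Dnmt3a were called. With the probes of each gene averaged it was -1.72 (adjusted p = 0.00713), but that average includes the dim Dnmt3a probe, so its size is not known either.

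The Tet genes moved in opposite directions relative to the 75th percentile: Tet1 and Tet3 were lower in KCS and Tet2 was higher. Tet1 read -0.60, -1.02 and -1.16 in KC and -2.63, -3.10 and -2.99 in KCS. Every KCS array lay below every KC array by more than 1 log2 unit. The change was -1.98 ± 0.23 (SE, adjusted p = 0.000633), 3.94-fold lower, and -2.03 and -1.95 on slides 1 and 2. With normexp on median signals followed by quantile normalization it was -0.75 (adjusted p = 0.00185). On the main scale it was 1.79 below the median of all rows, while on the spike-in scale the sign turned (0.90, adjusted p = 0.0355).

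The second Tet1 probe read -1.75, -1.51 and -1.44 in KC and -2.46, -2.55 and -2.31 in KCS. It changed in the same direction by a smaller amount, -0.87 (adjusted p = 0.00590). Both probes put Tet1 lower in KCS on this scale.

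Tet3 read -0.99, -1.19 and -1.19 in KC and -1.97, -2.86 and -2.82 in KCS. The first KCS array was the highest of its group and lay below all KC arrays. The change was -1.42 ± 0.28 (SE, adjusted p = 0.00508), 2.68-fold lower, -0.97 on slide 1 and -1.64 on slide 2, and on the spike-in scale the sign turned (1.46, adjusted p = 0.00556). With normexp on median signals followed by quantile normalization it was -0.64 (adjusted p = 0.00563). Another Tet3 probe read -2.94, -3.90 and -3.01 in KC, at background on all 3, and -3.73, -3.78 and -3.78 in KCS. It was not called (adjusted p = 0.192), and it gives no bound on a fold.

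Tet2 read 0.60, 0.47 and 0.54 in KC and 1.30, 1.29 and 0.96 in KCS. The KC arrays lay close together (SD 0.06), and the lowest KCS array, number 3, was above all of them. The change was 0.65 ± 0.18 (SE, adjusted p = 0.0188), 1.57-fold, and 0.70 and 0.62 on slides 1 and 2. The call was lost without the first KCS array (0.59, adjusted p = 0.0616), without the second (0.60, adjusted p = 0.0738) and with the probes averaged (0.56, adjusted p = 0.0633), and the change was 0.43 (adjusted p = 0.0213) with normexp on median signals followed by quantile normalization. A second Tet2 probe read -1.60, -2.48 and -1.71 in KC and -1.47, -1.18 and -1.71 in KCS, and its change of 0.48 was not called (adjusted p = 0.197).

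The Tet genes also changed unequally within arrays, where a scaling factor per array cancels. The log2 ratio of Tet1 to Tet2 was -1.20, -1.49 and -1.70 in KC and -3.93, -4.38 and -3.95 in KCS, a change of -2.63 ± 0.24 (SE, 95% interval -3.20 to -2.05, adjusted p = 0.000154). The ratio of Tet3 to Tet2 was -1.59, -1.66 and -1.73 in KC and -3.27, -4.14 and -3.78 in KCS, a change of -2.07 ± 0.27 (SE, 95% interval -2.70 to -1.43, adjusted p = 0.000546). The groups did not overlap in either ratio. Of all rows set against Tet2, 65.8% were called. With single arrays left out the changes ranged from -2.74 to -2.48 and from -2.30 to -1.86. With normexp on median signals followed by quantile normalization they were smaller, -1.18 and -1.07 (adjusted p = 0.000167 and 0.000442), so the direction held and the size depends on that setting. That setting adds an offset of 50 to every signal before the log, which by itself pulls log2 changes of dim probes towards 0. Its smaller sizes, here and for single genes, are therefore not a separate estimate of the size.

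**Figure D2:**
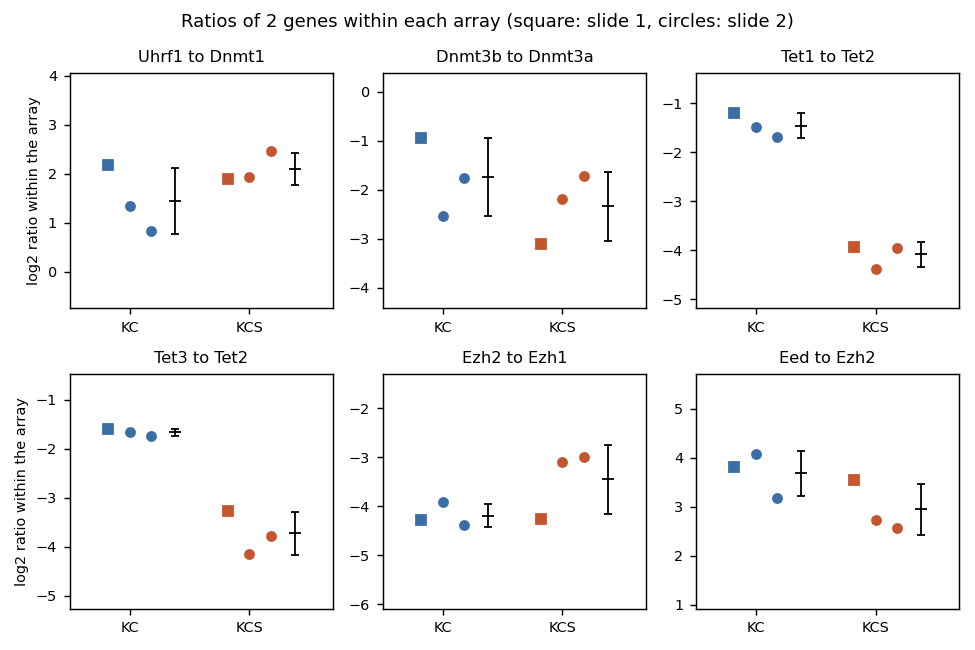
Log2 ratio of 2 genes within each array (y axis, each panel spanning the same range) for the 6 pairs compared, with KC in blue and KCS in orange, squares for slide 1, circles for slide 2, and the mean ± SD of 3 arrays to the right. The Tet1 to Tet2 and Tet3 to Tet2 ratios separate the groups, by -2.63 and -2.07, and the other 4 overlap.

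In PRC2, Eed was lower in KCS and neither catalytic subunit passed the test. Eed, the subunit that binds methylated lysine 27, read 4.02, 3.71 and 3.62 in KC and 3.02, 3.22 and 3.14 in KCS. All KCS arrays lay below all KC arrays. The change was -0.65 ± 0.19 (SE, adjusted p = 0.0213), 1.57-fold lower, -0.99 on slide 1 and -0.48 on slide 2. The call did not hold with median centring (-0.30, adjusted p = 0.263) or without KC array 1 (-0.54, adjusted p = 0.0572) or KCS array 1 (-0.60, adjusted p = 0.0667), 2 (-0.70, adjusted p = 0.0537) or 3 (-0.66, adjusted p = 0.0522), and the sign turned with spike-in scaling (2.23).

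Ezh1, the catalytic subunit typical of resting cells, read 4.49, 3.57 and 4.84 in KC and 3.75, 3.57 and 3.58 in KCS. The second KC array lay with the KCS arrays, and the other two KC arrays lay above them. The change was -0.66 ± 0.34 (SE, 95% interval -1.48 to 0.15, adjusted p = 0.133), and it turned to 2.22 with spike-in scaling. Without the second KC array it was -1.03 (adjusted p = 0.0101), so that array decides the call.

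Ezh2, the catalytic subunit typical of dividing cells, was measured by 5 probes that did not give one answer. The probe with the highest mean, which stands for the gene, read 0.21, -0.36 and 0.45 in KC and -0.52, 0.48 and 0.58 in KCS. The first KCS array was the lowest of all 6, and the groups overlapped. Its change was 0.08 ± 0.37 (SE, 95% interval -0.81 to 0.96, adjusted p = 0.867), -0.73 on slide 1 and 0.48 on slide 2.

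The probe of Ezh2 with the largest change read -1.41, -2.54 and -1.88 in KC and -0.89, -0.22 and -0.26 in KCS, with no overlap, a change of 1.48 (adjusted p = 0.00975). The next read -0.40, -0.97 and -0.01 in KC and 0.21, 0.50 and 0.51 in KCS, also without overlap, a change of 0.86 (adjusted p = 0.0330). The other two changed by 0.77 (adjusted p = 0.0627) and 0.25 (adjusted p = 0.461). All 5 changes were above 0, from 0.08 to 1.48, and 2 were called. All 5 probes were well above background on every array. Which transcripts or exons they read is not known here.

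**Figure D3:**
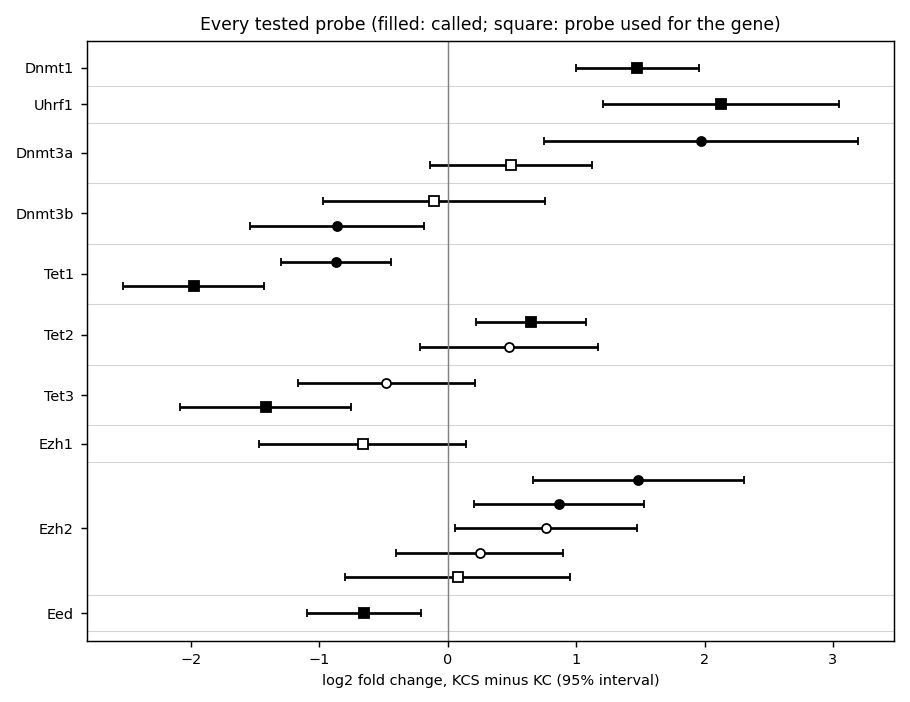
Log2 fold change, KCS minus KC (x axis), with its 95% interval for each of the 19 tested probes, grouped by gene (y axis). Filled symbols passed the limma test over all probes, and squares are the probes that stand for a gene. The 5 Ezh2 probes run from 0.08 to 1.48, and the 2 Tet1 probes lie at -1.98 and -0.87; with spike-in scaling all 19 probes are higher in KCS.

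Over all probes on their own rows, 11 of the 19 were called, 6 higher and 5 lower, beside 59.1% of all probes (26.8% higher and 32.3% lower). With the second slide alone 7 were called, beside 49.98% of all probes, and without KCS array 2 also 7, beside 47.9%.

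The log2 ratio of Ezh2 to Ezh1 within arrays was -4.28, -3.92 and -4.38 in KC and -4.27, -3.09 and -3.01 in KCS. The first KCS array lay within the KC range and the other two lay above it. The change was 0.74 ± 0.55 (SE, 95% interval -0.34 to 1.82, adjusted p = 0.281), and 41.6% of all rows set against Ezh1 were called. With each of the 5 Ezh2 probes in turn it was 0.74, 0.91, 1.43, 1.53 and 2.15, and with the probes averaged 1.35 (adjusted p = 0.0361). The ratio of Eed to Ezh2 was 3.80, 4.07 and 3.17 in KC and 3.54, 2.73 and 2.56 in KCS, a change of -0.73 ± 0.62 (SE, 95% interval -1.95 to 0.49, adjusted p = 0.381, with 35.1% of all rows called against Ezh2). With the probes averaged this was -1.34 (adjusted p = 0.0164). The intervals and adjusted p-values of these ratios can be too confident, because all rows set against a gene share its spread.

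**Figure D4:**
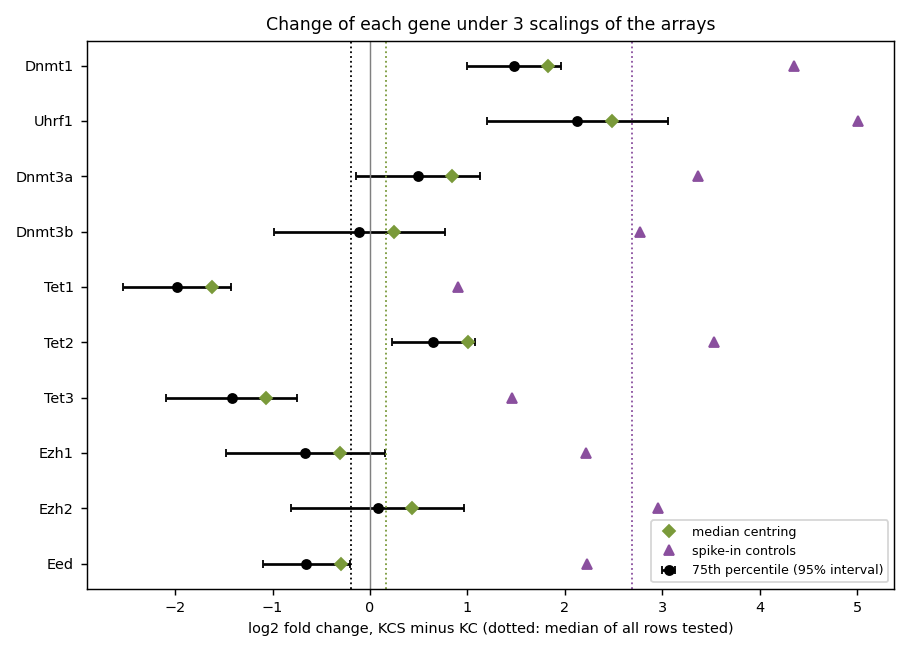
Log2 fold change, KCS minus KC (x axis), of each gene (y axis) with arrays scaled to the 75th percentile (circles, 95% interval), centred on their medians (diamonds) or scaled to spike-in controls (triangles). Dotted lines are the medians of all rows, -0.19, 0.16 and 2.69. Each scaling shifts all changes equally, so the order of the 10 genes, from Tet1 to Uhrf1, is the same by construction. Dnmt3b, Tet1, Tet3, Ezh1 and Eed are above 0 with spike-in scaling.

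Relative to the median of all rows, which removes the shift between scalings, Uhrf1 was 2.32 higher and Dnmt1 1.67 higher, and Tet2 and Dnmt3a were 0.84 and 0.68 higher. Ezh2 and Dnmt3b were 0.27 and 0.08 higher. Eed was at -0.46, Ezh1 at -0.47, Tet3 at -1.23 and Tet1 at -1.79.

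Genes that work with these enzymes are set beside the same background, in which 60.3% of all rows were called. Of 14 partners and readers of DNA methylation, 4 were higher and 1 lower (9 and 1 with median centring), with a median change of 0.43, beside -0.19 for all rows, or 0.20 with a gene not detected in KC at its bound. With the probes of each gene averaged, 3 were higher and 2 lower (median change 0.36). Mbd1, which binds methylated DNA, rose from 4.94, 4.09 and 3.86 in KC to 7.14, 7.04 and 7.84 in KCS, a change of 3.05 ± 0.36 (SE, adjusted p = 0.000670). Uhrf2, a relative of Uhrf1, rose by 0.90 ± 0.22 and Zbtb38, a reader of methylated DNA, by 1.23 ± 0.41 (adjusted p = 0.0120 and 0.0368).

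Dnmt3l, the cofactor of Dnmt3a and Dnmt3b that has no catalytic activity, read -0.09, -0.999 and -1.53 in KC and -2.64, -3.54 and -3.68 in KCS. It fell by 2.41 ± 0.45 on the log2 scale (adjusted p = 0.00390), but was 0.47 higher with spike-in scaling. Hells, a chromatin remodeller needed for DNA methylation, was called higher (1.39 ± 0.38, adjusted p = 0.0189). Hells had no KC array with signal well above background, and its bound is at least 1.003-fold, which allows no change.

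Among 9 further PRC2 subunits and cofactors, 1 was higher and 2 were lower (median change 0.24), or 4 and 2 with median centring and 3 and 3 with normexp on median signals followed by quantile normalization. With the probes of each gene averaged, 2 were higher and 3 lower (median change 0.03). Phf19, which guides PRC2 to chromatin, read 0.32, -0.84 and -1.002 in KC and -2.82, -2.99 and -2.64 in KCS, a change of -2.31 ± 0.37 (adjusted p = 0.00219) that was 0.57 with spike-in scaling. Its relative Phf1 changed by -1.20 ± 0.20 (adjusted p = 0.00273), or 1.68 with spike-in scaling. Rbbp7, a histone-binding subunit, rose by 0.90 ± 0.18 (adjusted p = 0.00489). Suz12 read 1.11, 1.33 and 1.26 in KC and 0.68, 0.96 and 0.88 in KCS, without overlap, and its change of -0.39 ± 0.17 did not pass (adjusted p = 0.0936).

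PRC1, the second Polycomb complex, binds the mark that PRC2 sets. Of 19 subunits, 6 were higher and 3 lower (median change 0.29), or 10 and 2 with median centring and 4 and 3 with the probes of each gene averaged. Cbx7, a subunit that reads methylated lysine 27, read 1.39, 2.11 and 2.44 in KC and -0.87, -1.21 and -0.88 in KCS. It changed by -2.96 ± 0.30 (adjusted p = 0.000393) and was at -0.08 with spike-in scaling. Cbx8, a relative of Cbx7 whose KC signals were all at background, was at least 2.48-fold higher (adjusted p = 0.00563). Kdm2b, which brings a form of PRC1 to CG-rich DNA, rose by 1.48 ± 0.18 and the subunit Phc2 by 1.57 ± 0.21 (adjusted p = 0.000682 and 0.00111). Pcgf1, which joins Kdm2b in that complex, changed by -0.98 ± 0.19 (adjusted p = 0.00518), or 1.90 with spike-in scaling.

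**Figure D5:**
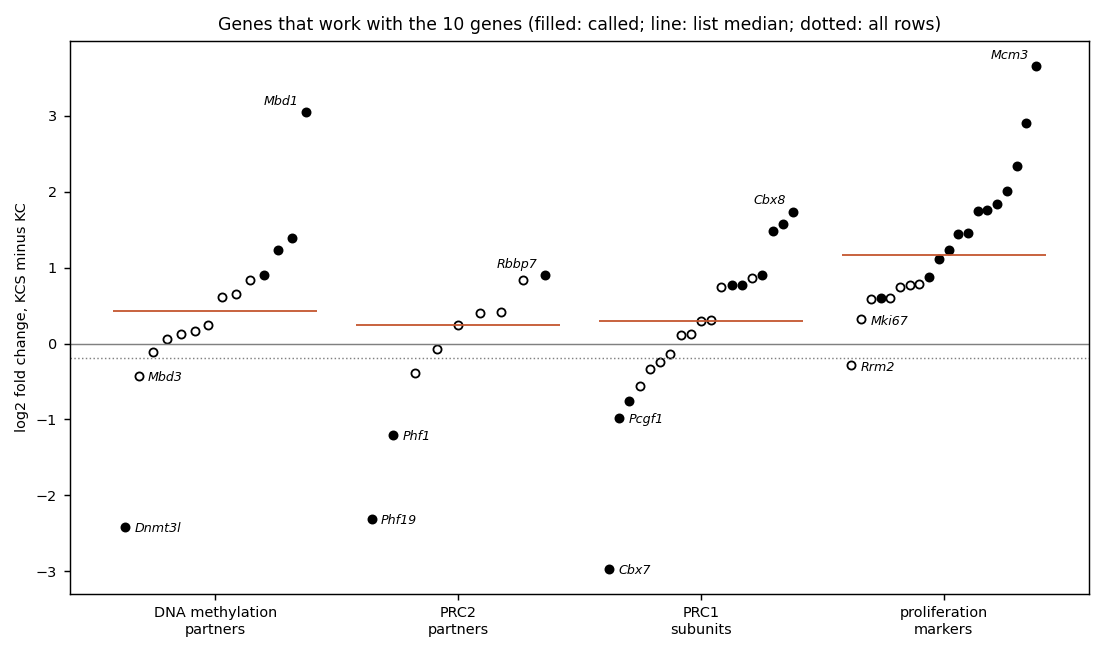
Log2 fold change, KCS minus KC (y axis), of each tested gene in 4 lists (x axis), sorted within a list. Filled points passed the limma test, the orange line is the list median (0.43, 0.24, 0.29 and 1.17) and the dotted line the median of all rows, -0.19. Mbd1 and Mcm3 are the highest of their lists, and Dnmt3l, Phf19 and Cbx7 are the lowest of theirs; with spike-in scaling Dnmt3l and Phf19 are above 0.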

How the data were processed

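Total RNA of 6 samples was amplified, labelled with Cy3 and hybridised to one-colour arrays, per the labels. The deposited scanner files, made with Agilent Feature Extraction 12.0.3.1 per the submitters' processing notes, give a background-corrected intensity per spot. The deposited log2 value table equals the scaled values centred on each probe's median (36110 probes, r of at least 0.999999, outlier spots kept), with column medians of -0.01, 0.05, 0.10, -0.05, -0.03 and -0.04 for KC and then KCS replicates 1 to 3. It was used as an alternative.

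Here, log2 intensity minus each array's 75th percentile was used. Outlier spots (88 to 140 per array) were left out, and spots of a probe were averaged. A probe was tested where at least 3 of the 6 arrays had it well above background. The probe with the highest mean stood for a gene. Accessions named 33762 of 56605 probes through RefSeq (GRCm38.p6), and probe positions are not given because the files are on a different build. Groups were compared with limma 3.58.1 (lmFit, eBayes, two-sided) in R 4.3.3, with Benjamini-Hochberg adjustment over all 27102 rows at 0.05. A ratio of 2 genes was tested by subtracting 1 gene's row from all rows, for 6 pairs, adjusted over all rows. The rows of such a fit share the spread of the subtracted gene, but the variance model treats them as independent. Ratio intervals, adjusted p-values and shares called can therefore be too confident, most so for rows set against Ezh1 and Ezh2. Intervals are 95%. A probe not well above background in a group has a fold of at least the brighter group's mean over the dimmer group's mean of the higher of the lowest well-above signal and its own. Arrays have no counting depth, and 3 per group limit the precision. Calls and signs of the limma fit were checked on simulated data with independent rows. Scaling, filters, bounds and the p-values of ratios were not checked in this way. Figures used Python 3.11.15 and matplotlib 3.10.9.

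Slide 1 held replicate 1 of both groups and slide 2 the others. Alternatives were other normalizations, background correction, filters, probe rules, variance models, thresholds, blocks, the second slide alone and each array left out. Normexp used median signals with an offset of 50 and was followed by quantile normalization. It was chosen after the data were seen, as were averaged probes for ratios and all alternatives for probe counts. The 10 genes and the lists were chosen with earlier results of these data known. Named were all 10 genes, from the lists up to 4 called genes without overlap and with the smallest p, Suz12, Mki67, Cdkn2a and Setdb1 in any case, and the 2 genes nearest to each of the 10. Some genes under this rule are not reported here. Zbtb38 and Cbx8, and the list genes named with the promoters, were chosen after their values were seen. Cell type genes were named by the rule but are summarised by list.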

Additional observations from a re-analysis of the deposited data

How the results depend on the processing

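Over all rows, 31886 were called without the filter on dim probes, beside 16345. With spike-in scaling all 10 genes and all 19 probes were called. Of the single genes, spike-in scaling turned the sign of Dnmt3b (2.77), Tet1 (0.90), Tet3 (1.46), Ezh1 (2.22) and Eed (2.23). Dnmt3b was also above 0 with median centring (0.25), the second slide alone (0.31), and without the first KC (0.16) or first KCS array (0.05). Ezh2 was below 0 without the second KC (-0.15), second KCS array (-0.07) or KCS array 3 (-0.12). With the second slide alone 4 of the 10 genes and 7 of their probes were called, beside 51.8% of all rows and 49.98% of all probes. The Uhrf1 to Dnmt1 ratio passed with normexp on median signals followed by quantile normalization (0.59), which also made the changes of Dnmt1 (0.85), Tet1 (-0.75), Tet3 (-0.64), Tet2 (0.43), Tet1 to Tet2 (-1.18) and Tet3 to Tet2 (-1.07) smaller by over 1.5 times. With averaged probes the ratios of Dnmt3b to Dnmt3a (-1.72), Ezh2 to Ezh1 (1.35) and Eed to Ezh2 (-1.34) passed. The test of a ratio can be too confident, as stated above. Averaging moved the change of Ezh2 from 0.08 to 0.69, while Ezh1 and Eed have 1 probe each. It moved Dnmt3a from 0.49 to 1.23 and Dnmt3b from -0.11 to -0.49. Why the probes of a gene differ was not tested. With any array left out, 13399 to 15283 rows, 4 to 7 of the 10 genes and 7 to 12 probes were called, the change of Dnmt3b ranged from -0.47 to 0.16 and that of Ezh2 from -0.15 to 0.43, and the ratios ranged from 0.34 to 1.01 (Uhrf1 to Dnmt1), -0.997 to -0.19 (Dnmt3b to Dnmt3a), -2.74 to -2.48 (Tet1 to Tet2), -2.30 to -1.86 (Tet3 to Tet2), 0.52 to 1.15 (Ezh2 to Ezh1) and -1.03 to -0.54 (Eed to Ezh2). Dnmt1, Uhrf1, Tet1 and Tet3 were called under every alternative run on the probe that stands for the gene, Tet1 and Tet3 with the sign turned by spike-in scaling. Higher calls made up 42.9% of all calls, against 56.5% (median centring), 96.8% (spike-in scaling) and 22.3% (no filter).

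Samples with the same replicate number deviated together with r = 0.331, 0.0433 and 0.143 (numbers 1, 2 and 3, across rows). On slide 2 each KC array deviated more with the KCS array of the other number, so the numbers were not taken as pairs. The signs followed the slide. Every KC and KCS pair on the same slide had a positive r, and every pair on different slides a negative one (-0.268 to -0.122). Deviations cancel within a group, so the pairs cannot all be positive. The main fit left the slide out. With a replicate block 16452 rows, 6 of the 10 genes and 12 of their probes were called, and no gene's or ratio's call changed. With the slide as a block it was 17225 rows, 6 genes and 12 probes. Signal near background limits the second probes of Uhrf1, Dnmt3a and Tet3.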

Other observations

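Genes that Polycomb and DNA methylation are known to keep silent were measured in part. Of 41 Polycomb targets (the Hox genes, Cdkn2a and Cdkn2b), 22 had detectable signal. Of these, 15 were higher and 3 lower in KCS, beside 25.9% and 34.4% of all rows. A gene silent in 1 group passes the detection filter only through the other, so no support is drawn from this count. Without the filter on dim probes, 15 of the 41 were called higher and 18 lower, beside 68.9% of all rows called. Their median change was then -1.15, beside -1.16 for all rows. Of the 22, 5 had only background signal in KC, and 11 were well above background on all 6 arrays (7 higher and 2 lower). Cdkn2b, which encodes an inhibitor of cyclin-dependent kinases, read -2.00, -1.97 and -3.22 in KC and 4.59, 5.001 and 4.15 in KCS, a change of 6.98 ± 0.41 (SE, limma adjusted p = 9.71e-05). Cdkn2a, its neighbour and a classic Polycomb target, had only background signal in the 3 KC arrays, and KCS was higher by at least 46.3-fold (adjusted p = 0.000173).

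The Hox genes did not move one way. Hoxb2 read -2.02, -2.55 and -2.65 in KC and 1.11, 0.94 and 0.88 in KCS, a change of 3.38 ± 0.22 (adjusted p = 0.000123). Hoxb3 read 4.60, 3.72 and 3.38 in KC and -1.86, -2.87 and -2.32 in KCS, a change of -6.25 ± 0.40 (adjusted p = 0.000115) that kept its sign with spike-in scaling (-3.37). Hoxa9 changed by -2.64 ± 0.19 (adjusted p = 0.000158), or 0.24 with spike-in scaling. Without any single array, 13 to 14 of the 22 targets that passed the filter were higher and 3 lower.

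Of 12 germline genes that promoter DNA methylation is known to silence, 4 were tested. Of these, 3 had only background signal in KC and passed the filter only through KCS, so no support is drawn from them. Without the filter on dim probes, 2 of the 12 were called higher and 4 lower (beside 68.9% of all rows called). Tex19.1 and Asz1 had only background signal in KC, and KCS was at least 7.12-fold and at least 2.30-fold higher (adjusted p = 0.000392 and 0.00293). Taf7l read 2.50, 3.05 and 3.04 in KC and 1.56, 1.47 and 1.67 in KCS, a change of -1.30 ± 0.21 (adjusted p = 0.00242). With spike-in scaling all 4 tested genes, Taf7l included, were called higher, beside 87.2% of all rows. Of 6 enzymes and cofactors that remove Polycomb marks, 1 was called: the cofactor Asxl3, with a bound of 1.02-fold. Kdm6a and Kdm6b, the lysine 27 demethylases, were at -0.48 and -0.14 (adjusted p = 0.234 and 0.576).

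The genes whose pattern over the 6 arrays came nearest to that of a called gene, out of 16259, are given for 5 of the 6 called genes with the root mean square difference of their centred log2 values. For Dnmt1 they were Cdc25b (0.049) and Fanca (0.070), for Uhrf1 Ly6k (0.15) and Trip13 (0.19), and for Tet2 Zfp704 and Rabep1 (0.047 each). For Tet1 they were Gm10318 (0.047) and Gm36561 (0.061), and for Tet3 Msi1 (0.058) and Pcp2 (0.078). For the 4 genes that were not called, the nearest were Map3k12 and Kcnk6 (Dnmt3a), BC025920 and Trim13 (Dnmt3b), Atg2a and Poli (Ezh1), and Cldn23 and Artn (Ezh2), at 0.070 to 0.14.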
